A study of Homo sapiens with 8 samples.

Results

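Collagen, laminin and integrin genes of HCT116 cells and of a MED12 E33Q knock-in line were described without and with interferon-gamma (IFN-γ). The set holds every protein-coding row named COL with a chain number, LAMA, LAMB or LAMC with a number, or ITGA or ITGB with a number or letter. Integrin-binding proteins were left out. It comprised 82 of the 40295 gene IDs in the table, 44 for collagens, 12 for laminins and 26 for integrins. Of these, 62 passed the filter on low counts and were tested (28 collagen, 11 laminin and 23 integrin genes).

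HCT116 is a human colorectal cancer line, and the knock-in line was made from it by CRISPR-Cas9 to carry MED12 E33Q. MED12 belongs to the kinase module of Mediator, a coactivator of transcription. Each line was sampled untreated (0 h) and after 24 h with 5 ng/ml IFN-γ, with 2 libraries per group that the submitters call biological replicates, 8 in all. Total RNA was depleted of rRNA and carried ERCC spike-ins, and counts per gene cannot show the MED12 change itself. Every untreated library is a 0 h library, so IFN-γ and 24 h in culture cannot be told apart. A single knock-in line is named, so a line difference cannot be divided between the MED12 change and other differences of that line. Whether replicates came from separate cultures is not described further, and the p-values measure the spread between these libraries.

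Collagens are trimers of alpha chains that form fibrils, sheets and anchoring filaments, and laminins are trimers of an alpha, a beta and a gamma chain that build the basement membrane under epithelia. Integrins are dimers of an alpha and a beta subunit that bind these proteins at the cell surface and link them to the cytoskeleton. In colon epithelium, the dimers of ITGA6 with ITGB4 and of ITGA3 with ITGB1 bind laminins, while ITGAV with ITGB8 binds and activates latent TGF-beta.

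Of the 7 genes that differed between the lines both without and with IFN-γ, 5 have a promoter entry in RefSeq (GRCh38.p14). The 250 bases before each start are shown here because these are the genes on which the line comparison turns. They are written 5′ to 3′ on the gene's strand, before RefSeq's start of the gene. RefSeq's starts differ from those of the annotated genes given with the values: the windows of ITGB8, COL13A1 and LAMB1 overlap the annotated gene, and that of LAMA3 lies inside it. Capitals mark matches to the core letters GGGCGG of an SP1 box, on either strand, and to the AP-1 letters TGANTCA, which read alike on both strands. The 2 kinds of match did not overlap each other in these windows.
ITGB8 (chr7:20330650-20330899, plus strand): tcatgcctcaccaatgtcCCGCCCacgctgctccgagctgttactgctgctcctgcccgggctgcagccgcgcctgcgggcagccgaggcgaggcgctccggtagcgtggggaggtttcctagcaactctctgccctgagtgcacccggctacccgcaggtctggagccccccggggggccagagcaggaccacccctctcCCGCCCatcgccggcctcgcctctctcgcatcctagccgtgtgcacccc
COL13A1 (chr10:69801656-69801905, plus strand): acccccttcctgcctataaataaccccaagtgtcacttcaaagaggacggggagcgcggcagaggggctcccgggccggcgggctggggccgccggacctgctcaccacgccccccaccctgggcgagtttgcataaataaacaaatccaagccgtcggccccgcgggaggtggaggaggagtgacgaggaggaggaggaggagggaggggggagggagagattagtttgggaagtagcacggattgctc
LAMB1 (chr7:108003162-108003411, minus strand): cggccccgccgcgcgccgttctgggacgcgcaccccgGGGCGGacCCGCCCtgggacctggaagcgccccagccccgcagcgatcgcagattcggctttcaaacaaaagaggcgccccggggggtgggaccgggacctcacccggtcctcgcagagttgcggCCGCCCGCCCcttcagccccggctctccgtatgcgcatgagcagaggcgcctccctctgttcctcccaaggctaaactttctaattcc
LAMA3 (chr18:23872770-23873019, plus strand): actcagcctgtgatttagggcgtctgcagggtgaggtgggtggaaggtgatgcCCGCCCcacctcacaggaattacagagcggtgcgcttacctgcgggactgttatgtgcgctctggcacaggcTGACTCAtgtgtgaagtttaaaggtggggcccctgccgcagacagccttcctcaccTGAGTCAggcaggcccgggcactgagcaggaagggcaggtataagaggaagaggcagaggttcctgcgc
LAMC1 (chr1:183023170-183023419, plus strand): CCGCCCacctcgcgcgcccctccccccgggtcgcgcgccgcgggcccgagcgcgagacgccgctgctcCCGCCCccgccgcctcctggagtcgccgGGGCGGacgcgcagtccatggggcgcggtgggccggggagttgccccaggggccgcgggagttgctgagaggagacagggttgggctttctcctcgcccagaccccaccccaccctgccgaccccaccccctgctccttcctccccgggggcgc

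The LAMA3 window held 2 AP-1 matches, 125 to 119 and 69 to 63 bases before the start, and was the only one among the promoters of 46 tested genes of the set with that motif (2.17%, against 4.02% of the promoters of 11049 tested genes). The SP1 letters were in 24 of the 46 (52.2%, against 65.9%). ITGB8 had 2 such matches, LAMB1 4, LAMA3 1 and LAMC1 3, and in LAMB1 a pair of them overlapped. COL13A1 had no match to either motif. An interferon-gamma activated site (TTCNNNGAA) was found in 3 of the 46 (6.52%, against 5.39%), COL7A1, ITGAE and LAMB2. The interferon regulatory factor motif, GAAA followed 2 bases later by another GAAA, was found in COL17A1 alone (2.17%, against 2.39%). These matches describe letters in a window and do not show that a factor binds there. In all, 58 of the 82 genes matched an entry. COL9A3 is named only.

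Levels were compared between genes as CPM, counts scaled by library size, per kilobase of transcript (CPM per kb), averaged over the 8 libraries. Integrins were the most abundant family. ITGB1, the beta subunit shared by most matrix receptors, stood at 232 CPM per kb, ahead of its partners ITGA3 at 69.9 and ITGA6 at 64.8 and of ITGB4, the hemidesmosome subunit, at 27.6. Among the leading laminin chains were LAMB1 at 15.02, LAMC1 at 11.5 and LAMA5 at 7.74 CPM per kb. Among collagens the highest were COL12A1, a chain found on the surface of fibrils, at 14.2, the collagen VI chains COL6A2 at 12.6 and COL6A1 at 9.60, and COL18A1, a basement membrane chain, at 9.89.

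Several trimers and dimers had only some of their chains at a clear level. Collagen IV was represented by COL4A5 (3.90 CPM per kb) and COL4A4 (1.70), while the chains of most basement membranes, COL4A1 (0.0914) and COL4A2 (0.0685), were near the filter. COL1A1 stood at 0.493 and its partner COL1A2 at 0.0819. Among beta subunits, ITGB5 stood at 15.1 and ITGB8 at 6.46 CPM per kb, but ITGB6 at 0.196. The 62 tested genes span 0.054 to 232 CPM per kb. COL11A2 had the same count as another gene ID in every library, so its value is uncertain. Summed over a family and not per length, integrin genes held 1688 to 2296 CPM in a library, laminin genes 247 to 534 CPM and collagen genes 263 to 519.5 CPM.

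**Figure D1:**
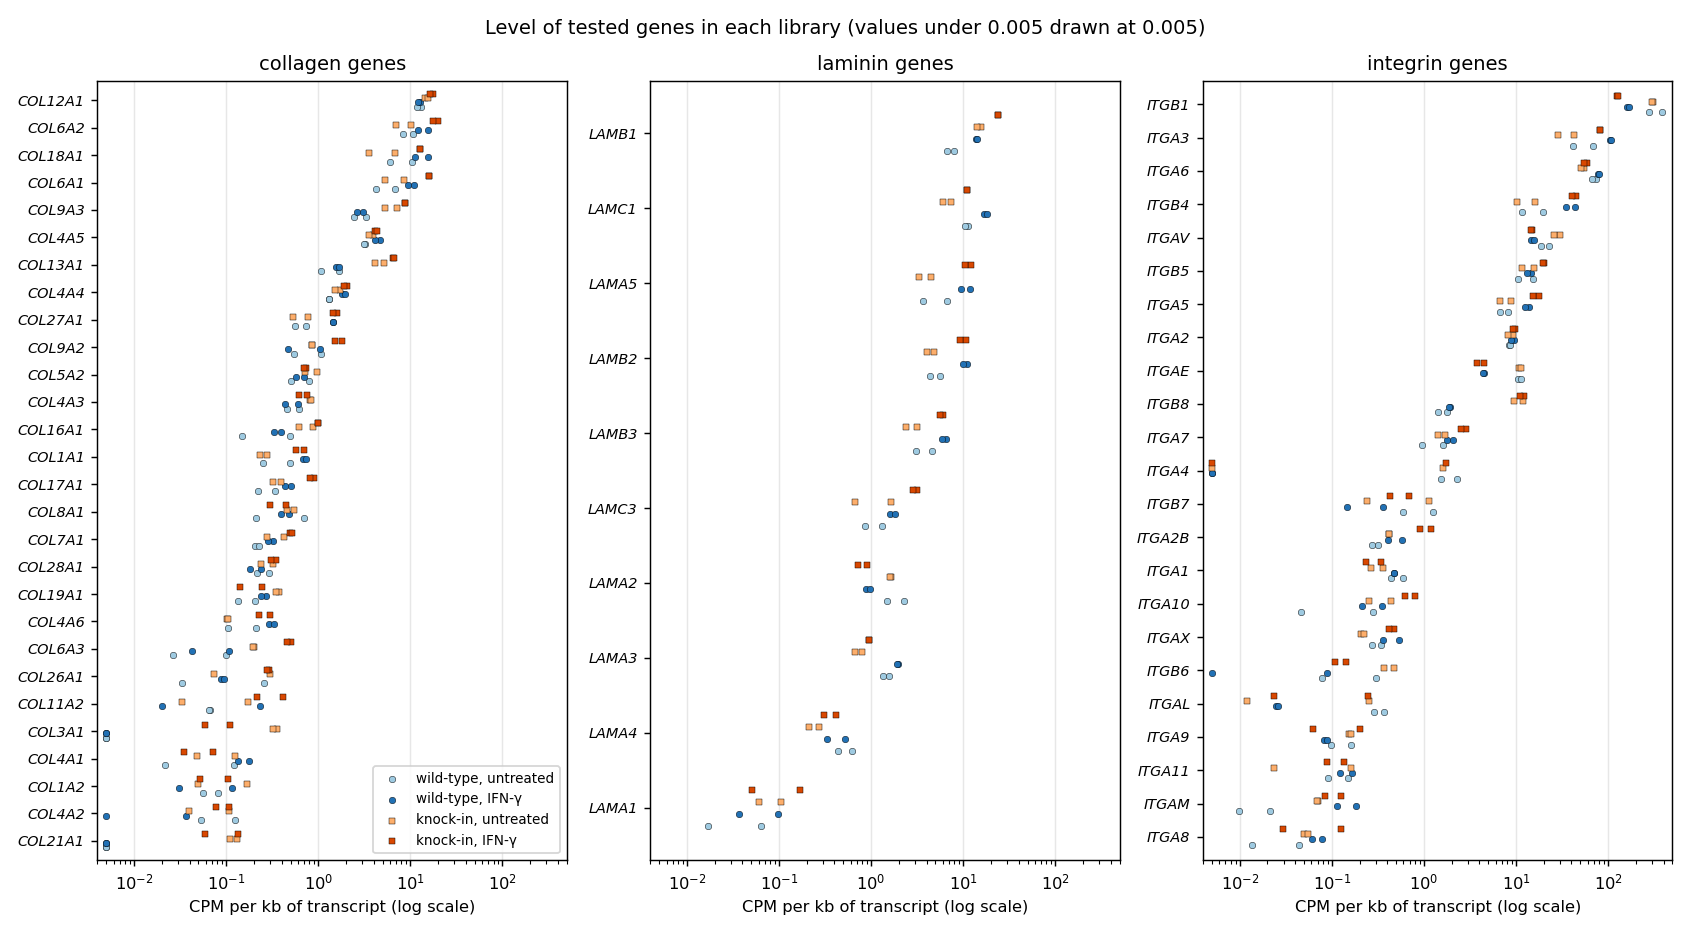
Level of the tested genes, all but 1, in each of the 8 libraries, in CPM per kb of transcript on a log axis, by family and ordered by the mean; each point is 1 library, coloured by group, and values under 0.005 are drawn at 0.005. ITGB1 leads the integrins at a mean of 232 CPM per kb, and the orange knock-in points of ITGB8 and COL13A1 stand apart from the blue wild-type points.

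The 20 genes that were not tested had at most 19 counts in any library. They were COL10A1, COL11A1, COL14A1, COL15A1, COL20A1, COL22A1, COL23A1, COL24A1, COL25A1, COL2A1, COL5A1, COL5A3, COL6A5, COL6A6, COL8A2, COL9A1, ITGAD, ITGB2, ITGB3 and LAMB4. COL22A1, COL6A5 and COL8A2 had 0 counts in all 8 libraries, which allows up to 3 counts in each. ITGB2, the beta subunit of the leukocyte integrins, had 4 counts in 1 library and 0 in 7.

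Facts of the whole libraries bear on the results. Deposited counts summed to between 20901909 and 28045842 per library. The mean GC content of the counted transcripts was 46.0 to 47.4% in untreated and 48.7 to 48.8% in treated libraries, and spike-ins made up 0.110 to 0.141% and 0.228 to 0.271% of counts. Spike-in scaling moved the median of all tested genes by −0.80 (log2) in the response of wild-type cells, by −0.53 in that of knock-in cells, by −0.33 between the untreated lines and by −0.06 between the treated ones. All changes given here are relative to all other genes of the same library, with TMM scaling (trimmed mean of M-values). Values with the trend of each library on GC content and length removed, or under spike-in scaling, are given beside many of them. They are given mainly where they end a call, turn a direction or move a value by more than 1.5 times. A value that is not given need not be unchanged. Epithelial markers were present (EPCAM 115 to 217 CPM, KRT8 1440 to 3610 CPM, CDH1 24.2 to 56.4 CPM), as was the intestinal marker CDX2 at 2.01 to 7.85 CPM. KRT20 stood at 0.458 to 1.78 CPM, and VIL1, CDX1, CEACAM5 and CEACAM6 at 0 to 0.322 CPM.

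The first question was which genes of the set differed between the lines. ITGB8 and COL13A1 were several-fold higher in knock-in cells both without and with IFN-γ. COL9A3 and LAMB1 were also higher in both states, while LAMA3 and LAMC1 were among the lower genes. Without treatment 8 of 62 genes were called (12.9%; 5 higher and 3 lower), against 8.43% of all tested genes (4.26% higher and 4.17% lower). With IFN-γ 7 of 62 were called (11.3%; 4 higher and 3 lower), against 2.91% (1.63 and 1.28%). Values after ± are standard errors of the log2 fold change. A gene was called at an adjusted p under 0.05 in the quasi-likelihood test of edgeR, with p-values adjusted over 16519 tested genes by the method of Benjamini and Hochberg. The median log2 fold change of the 62 genes was 0.15 without and 0.26 with IFN-γ, beside −0.02 and −0.01 for all tested genes. It was 0.31 and 0.22 with the GC and length trend removed, beside −0.05 and −0.05, and −0.13 and 0.20 under spike-in scaling, beside −0.35 and −0.06. Under spike-in scaling 2 genes of the set were called higher and 3 lower without IFN-γ (background 4.04%, of which 0.908% higher and 3.13% lower), and 2 and 1 with it (1.18%, of which 0.575 and 0.605%). The 7 genes called in both states were 11.3% of the set, against 2.28% of all tested genes. The 2 comparisons share no library, but they set the same 2 lines against each other. They also share 1 fit and its estimate of the spread, so they are not independent.

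ITGB8 encodes the beta8 subunit that pairs with ITGAV (chromosome 7, 20330702 to 20415754 on GRCh38). It stood at 8.73 and 10.8 CPM in wild-type cells before and 11.6 and 11.5 after IFN-γ, and 73.1 and 57.5 in knock-in cells before and 74.3 and 66.9 after it. The knock-in libraries lay far above the wild-type ones and the groups did not overlap. Groups of 2 libraries did not overlap for 50.6% of all tested genes between the untreated lines, 57.7% between the treated ones, and 69.6 and 78.9% in the wild-type and knock-in responses, so that alone sets no gene apart. The log2 fold change was 2.74 ± 0.18, adjusted p = 7.14e-05 without and 2.61 ± 0.18, adjusted p = 9.95e-05 with IFN-γ (edgeR, n = 2 per group). Its response to IFN-γ was not called in either line (0.24 ± 0.18, adjusted p = 0.317, and 0.11 ± 0.17, adjusted p = 0.606), though with the GC and length trend removed it was called higher in knock-in cells (0.48, adjusted p = 0.0122).

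Among the integrin beta subunits that pair with ITGAV, other than ITGB1, ITGB8 took 8.42 and 14.4% of the summed CPM per kb in untreated and 11.6 and 12.48% in treated wild-type cells. In knock-in cells its share was 42.8 and 43.7% before and 37.1 and 35.6% after treatment. The rest was nearly all ITGB5, with ITGB6 and ITGB3 low. With ITGB1 counted as well, the ITGB8 share was 0.482 and 0.448% in untreated and 1.07 and 1.025% in treated wild-type cells. In knock-in cells it was then 3.56 and 2.93% before and 7.69 and 6.98% after treatment. The share thus fell with treatment in knock-in cells without ITGB1 in the sum and rose with it. The GC trend was not removed from these shares, and the GC content is 41.1% for ITGB8, 54.6% for ITGB5 and 40.9% for ITGB1. With the trend removed, ITGB8 was called higher in the knock-in response and ITGB5 stood at −0.34, not called. The direction of the share change may thus depend on the trend, which was not tested. ITGAV itself was not called between the lines without (0.43 ± 0.14, adjusted p = 0.0906) or with IFN-γ (−0.05 ± 0.14, adjusted p = 0.92).

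COL13A1 encodes a transmembrane collagen of cell junctions (chromosome 10, 69801867 to 69964275). It stood at 3.81 and 2.45 CPM in wild-type cells before and 3.58 and 3.84 after IFN-γ, and 11.8 and 9.39 in knock-in cells before and 14.6 and 15.2 after it. Both knock-in groups lay above both wild-type groups. Without IFN-γ the difference was 1.75 ± 0.26, adjusted p = 0.00481 (edgeR), but 1.39, adjusted p = 0.0579 under spike-in scaling, and with IFN-γ it was 2.01 ± 0.25, adjusted p = 0.00307.

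COL9A3 encodes a chain of collagen IX, a fibril-associated collagen best known from cartilage (chromosome 20, 62816244 to 62841159). Its values were 8.18 and 6.06 CPM in wild-type cells before and 7.59 and 6.49 after IFN-γ, and 17.9 and 13.4 in knock-in cells before and 21.5 and 21.7 after it. The lowest knock-in library was above the highest wild-type one. The difference was 1.13 ± 0.22, adjusted p = 0.018 without and 1.62 ± 0.22, adjusted p = 0.0046 with IFN-γ (edgeR). Under spike-in scaling neither was called (0.78, adjusted p = 0.147, and 1.55, adjusted p = 0.064). Its partner chain COL9A2 was not called (0.07 ± 0.47 and 1.12 ± 0.47), and COL9A1 was not tested.

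COL3A1 encodes the chain of collagen III, a fibrillar collagen of stroma, and was close to the limit of detection. It had 0 counts in all 4 wild-type libraries, and 30 and 37 counts in knock-in cells before and 14 and 7 after IFN-γ. Against a floor of 3 counts per library it was at least 11.1-fold higher in untreated and at least 3.34-fold higher in treated knock-in cells. It was called without IFN-γ (edgeR, adjusted p = 0.0189) but not with it (adjusted p = 0.0812). COL21A1 showed the same pattern at lower counts, with 0 in every wild-type library and at most 15 in a knock-in library, at least 3.40-fold and 3.33-fold higher, and was not called. The fibroblast markers LUM, PDGFRA and POSTN were at 0 in every library. The summed level of all 10 fibroblast markers was 8.96 to 14.985 CPM in wild-type and 15.4 to 31.3 CPM in knock-in libraries, nearly all of it FBLN1, and its part in the COL3A1 difference was not tested.

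The laminin chains differed between the lines in opposite directions. LAMB1, the beta chain of the widespread laminin trimers (chromosome 7, 107923799 to 108003255), stood at 45.3 and 38.5 CPM in wild-type cells before and 78.97 and 81.7 after IFN-γ, and 89.98 and 80.2 in knock-in cells before and 136 and 137 after it. Each knock-in group lay above the wild-type group of the same treatment. The difference was 1.02 ± 0.13, adjusted p = 0.00289 without and 0.77 ± 0.13, adjusted p = 0.0155 with IFN-γ (edgeR), but under spike-in scaling it was not called (0.68, adjusted p = 0.088, and 0.71, adjusted p = 0.217). Its exons overlap those of DLD on the other strand by up to 70 bases, and whether counting used strand is not given in the sources used here.

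LAMA3, an alpha chain of epithelial laminin (chromosome 18, 23689443 to 23956222), stood at 10.4 and 12.1 CPM in wild-type cells before and 15.2 and 14.9 after IFN-γ, and 5.12 and 6.11 in knock-in cells before and 7.43 and 7.38 after it. Its knock-in values lay below all wild-type values. The difference was −0.998 ± 0.19, adjusted p = 0.0174 without and −1.02 ± 0.19, adjusted p = 0.0222 with IFN-γ (edgeR), although the second was not called under spike-in scaling (−1.08, adjusted p = 0.0837). The beta chain LAMB3, which pairs with it, was not called (−0.48 ± 0.22, adjusted p = 0.205, and −0.09 ± 0.22, adjusted p = 0.898).

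LAMC1, the gamma chain of most laminins (chromosome 1, 183023460 to 183145592), stood at 90.1 and 82.6 CPM in wild-type cells before and 134 and 142 after IFN-γ, and 58.7 and 47.6 in knock-in cells before and 86.8 and 86.6 after it. Within each treatment the knock-in libraries were the lower ones. The difference was −0.70 ± 0.14, adjusted p = 0.0185 without and −0.67 ± 0.14, adjusted p = 0.0344 with IFN-γ (edgeR), the second −0.73, adjusted p = 0.174 under spike-in scaling.

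As a part of the summed CPM per kb of the beta chains, LAMB1 made up 43.3 and 47.2% in wild-type cells before and 44.1 and 47.1% after IFN-γ. In knock-in cells it made up 66.2 and 68.5% before and 58.8 and 61.6% after it. These shares did not overlap between the lines at either time. They too were taken without removing the GC trend.

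**Figure D2:**
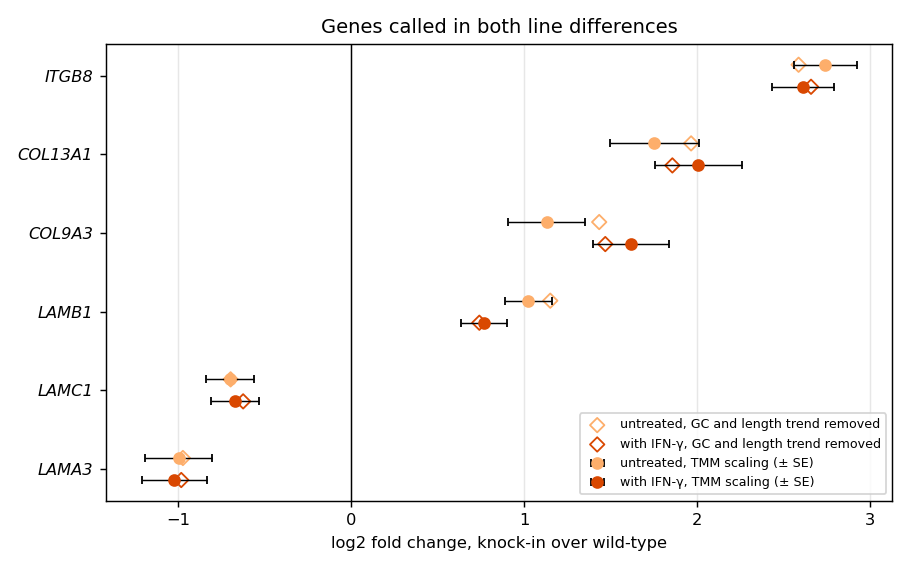
Log2 fold change of knock-in over wild-type cells for genes called both without and with IFN-γ; filled circles with bars show the value ± standard error under TMM scaling, open diamonds the value with the GC and length trend removed. ITGB8 stands highest at 2.74 and 2.61 and LAMA3 lowest at −0.998 and −1.02, and removing the trend leaves each gene on its side of 0. COL3A1, which was called only without IFN-γ and had 0 counts in wild-type cells, is not drawn.

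Leaving out 1 library at a time leaves 1 sample in a group, which is then assumed to vary like the others. Without IFN-γ, the calls of COL13A1, ITGB8 and LAMB1 held in all 4 such fits. COL3A1 was no longer called after dropping untreated wild-type library 1 or either untreated knock-in library (adjusted p up to 0.111). COL9A3 lost it without untreated knock-in library 1 (adjusted p = 0.087). LAMA3 lost it without either untreated knock-in library (up to 0.0898). LAMC1 lost it without untreated wild-type library 1 or untreated knock-in library 2 (−0.86 to −0.55, highest adjusted p 0.131). Leaving out untreated wild-type library 2 raised the count of called genes of the set from 8 to 15, and leaving out either untreated knock-in library lowered it to 5.

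With IFN-γ, COL13A1 and ITGB8 were called in all 4 fits. LAMA3 (adjusted p 0.135 to 0.222), LAMB1 (0.148 to 0.161) and LAMC1 (0.177 to 0.298) lost their calls whichever of the treated wild-type or treated knock-in libraries was left out. Their log2 fold changes ranged only from −1.04 to −1.01, 0.74 to 0.79 and −0.71 to −0.63. COL9A3 was no longer called once treated wild-type library 2 was dropped (adjusted p = 0.0729). That left 3 called genes of the set, and dropping any other of these libraries left 4. Without both knock-in libraries numbered 2, which carried an immunoglobulin signal, the count was 4 without and 2 with IFN-γ. COL13A1 and ITGB8 were called in both.

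In a fit of only the groups compared, the calls of LAMA3 and LAMC1 without IFN-γ were lost. With the GC and length trend removed, all 8 untreated and all 7 treated line calls held. In all, 8 genes were then called higher and 5 lower without and 8 and 6 with IFN-γ, and the background rose to 17.3% of tested genes (7.19% higher and 10.1% lower) without and 10.3% (4.43 and 5.91%) with IFN-γ. Called then without IFN-γ were also COL16A1 (1.67, adjusted p = 0.0188), COL21A1 and COL6A1 (0.72, adjusted p = 0.0044) as higher, and ITGA6 (−0.58, adjusted p = 0.0086) and ITGB1 (−0.32, adjusted p = 0.0211) as lower in knock-in cells. With IFN-γ, COL12A1 (0.55, adjusted p = 0.00651), COL3A1, COL6A1 (0.54, adjusted p = 0.0205) and COL6A3 (2.69, adjusted p = 0.025) were called higher, and ITGA3 (−0.48, adjusted p = 0.0302), ITGA6 (−0.45, adjusted p = 0.0385) and ITGB1 (−0.36, adjusted p = 0.0199) lower. Under TMM scaling none of these except COL3A1 without IFN-γ was called. ITGA6, the laminin-binding alpha subunit, stood at 260.0 and 238 CPM in wild-type cells before and 276 and 283 after IFN-γ, and 193 and 180.5 in knock-in cells before and 209.8 and 196 after it. COL12A1 stood at 125 and 113 CPM in wild-type cells before and 122 and 118 after IFN-γ, and 139 and 151 in knock-in cells before and 170.1 and 156 after it. Within each treatment the knock-in libraries of ITGA6 were below, and those of COL12A1 above, the wild-type ones.

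The second question was how the set responded to IFN-γ in each line. Under TMM scaling LAMA5, LAMB1, LAMB2, LAMB3 and LAMC1, the integrin subunits ITGB4, ITGA3 and ITGA5, and the collagens COL6A1 and COL27A1 rose in both lines, and ITGB1, ITGAE, ITGAV and LAMA2 fell in both. Under spike-in scaling the 4 falls were still called in both lines, but of the rises only that of ITGB4 in knock-in cells. In wild-type cells 18 of 62 genes were called (29%; 13 higher and 5 lower), against 37.9% of all tested genes (17.1% higher and 20.8% lower). In knock-in cells 22 were called (35.5%; 18 higher and 4 lower), against 52.1% (26.4 and 25.8%). Both shares were below the background, as was the share called in the same direction in both lines (14 of 62, against 34.4% of all tested genes). The median log2 fold change was 0.31 in wild-type and 0.45 in knock-in cells, beside 0.08 and 0.12 for all tested genes. With the trend removed these medians were −0.03 and −0.06, beside −0.01 and −0.02. Under spike-in scaling they were −0.34 and −0.09, beside −0.72 and −0.41. By family, 6 of 11 laminin, 8 of 23 integrin and 4 of 28 collagen genes were called in wild-type cells, and 7, 9 and 6 in knock-in cells.

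The rises were mostly of genes with a high GC content. The genes called higher had a median GC content of 59.1% in wild-type and 59.7% in knock-in cells, and those called lower 45.1 and 43.7%. Across the 62 genes, which share libraries, Spearman's rho between GC content and the response was 0.38 in wild-type and 0.69 in knock-in cells (Pearson's r 0.25 and 0.66), and across 15270 tested genes with known GC content 0.50 and 0.66 (0.30 and 0.56). After the trend was removed, 3 of the 13 rises in wild-type and 2 of the 18 in knock-in cells were still called, but 4 of 5 and 4 of 4 falls. In wild-type cells 4 genes were then called higher and 8 lower, and in knock-in cells 5 and 6, with backgrounds of 26.4% (10.6% higher and 15.9% lower) and 31.0% (12.7 and 18.4%). Spike-in scaling left 0 rises and 10 falls in wild-type and 1 rise and 4 falls in knock-in cells, with backgrounds of 42.2% (1.41% higher and 40.8% lower) and 36.9% (3.73 and 33.1%).

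**Figure D3:**
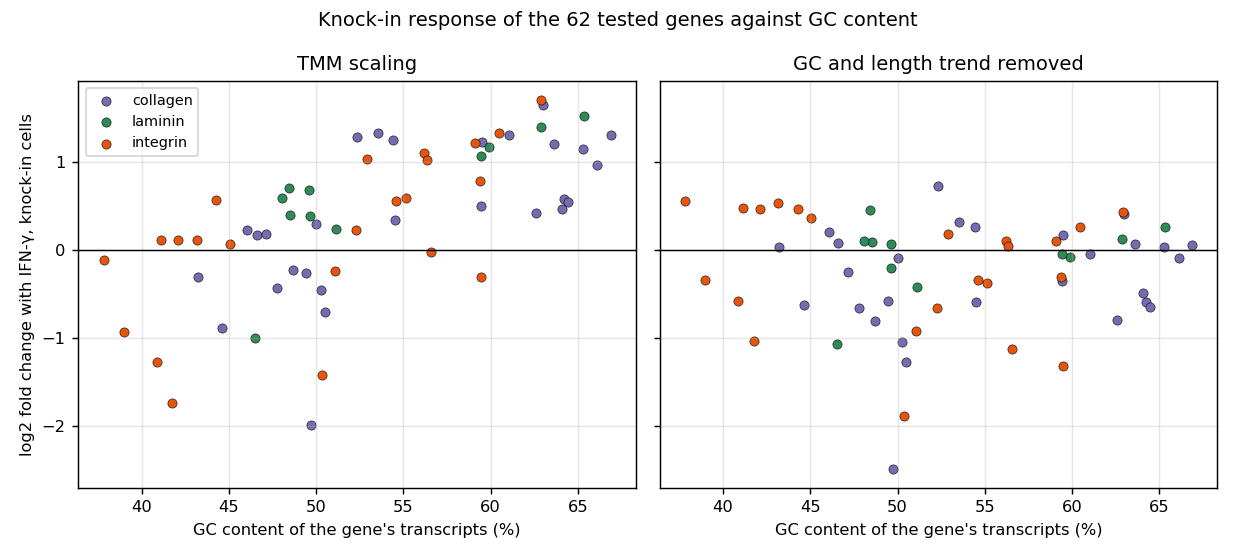
Log2 fold change with IFN-γ in knock-in cells against the GC content of the gene's transcripts in percent, for the 62 tested genes coloured by family, under TMM scaling (left) and with the trend removed (right). On the left the response rises with GC content (rho 0.69), and on the right it does not (rho −0.06).

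ITGB4, which anchors hemidesmosomes to laminin together with ITGA6 (chromosome 17, 75721328 to 75757818), had the largest rise of the called genes in knock-in cells under TMM scaling. It stood at 110.0 and 65.5 CPM in wild-type cells before and 247 and 197 after IFN-γ, and 90.03 and 58.1 in knock-in cells before and 256 and 228 after it. All treated libraries lay above all untreated ones. The rise was 1.34 ± 0.27, adjusted p = 0.00442 in wild-type and 1.71 ± 0.27, adjusted p = 0.000767 in knock-in cells (edgeR). It was smaller but still called with the trend removed (0.56, adjusted p = 0.00644, and 0.43, adjusted p = 0.0199). Under spike-in scaling it was called in knock-in (1.18, adjusted p = 0.0299) and not in wild-type cells (0.51, adjusted p = 0.302).

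ITGB1 moved the other way (chromosome 10, 32900319 to 33005792). It stood at 1045 and 1433 CPM in wild-type cells before and 605 and 631 after IFN-γ, and 1152 and 1119 in knock-in cells before and 469 and 472 after it. All treated libraries were lower than all untreated ones. The fall was −1.003 ± 0.15, adjusted p = 0.00118 in wild-type and −1.27 ± 0.15, adjusted p = 0.000238 in knock-in cells (edgeR), −0.55, adjusted p = 0.00071 and −0.59, adjusted p = 0.000387 with the trend removed, and −1.78 and −1.80 under spike-in scaling. ITGB4 took 6.47 and 2.92% of the summed CPM per kb of ITGB4 and ITGB1 in untreated and 21.2 and 17.04% in treated wild-type cells. In knock-in cells it took 4.89 and 3.30% before and 26.4 and 24.1% after treatment. These shares were taken without removing the GC trend, and the GC content is 62.9% for ITGB4 and 40.9% for ITGB1. The part of the trend in the shares was not tested.

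ITGA3 and ITGA5, alpha subunits that pair with ITGB1, rose under TMM scaling. ITGA3, a laminin receptor subunit, stood at 297 and 179 CPM in wild-type cells before and 452 and 458 after IFN-γ, and 181 and 122 in knock-in cells before and 351 and 352 after it. It rose by 0.94 ± 0.24, adjusted p = 0.0142 in wild-type and 1.21 ± 0.24, adjusted p = 0.0025 in knock-in cells (edgeR), with 0.29, adjusted p = 0.109 and 0.10, adjusted p = 0.576 once the trend was removed, and 0.09 and 0.68 under spike-in scaling, neither called. ITGA5, the fibronectin receptor subunit, stood at 36.4 and 29.7 CPM in wild-type cells before and 61.6 and 56.02 after IFN-γ, and 39.2 and 29.98 in knock-in cells before and 79.9 and 68.5 after it. It rose by 0.83 ± 0.18, adjusted p = 0.0058 and 1.10 ± 0.18, adjusted p = 0.000816 (edgeR), and by 0.19 and 0.10 with the trend removed and 0.02 and 0.57 under spike-in scaling, none of them called. In both genes all treated libraries were above the untreated ones.

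ITGA6 was not called under TMM scaling (0.17 ± 0.12, adjusted p = 0.296, and 0.12 ± 0.12, adjusted p = 0.444), but was called higher with the trend removed (0.40, adjusted p = 0.0308, and 0.53, adjusted p = 0.00634) and lower in the wild-type line by spike-in scaling (−0.64, adjusted p = 0.0166). ITGA2, a collagen receptor subunit, was called higher in knock-in cells with the trend removed (0.46, adjusted p = 0.0037) and lower in the wild-type line by spike-in scaling (−0.67, adjusted p = 0.02). ITGAV, which binds vitronectin and latent TGF-beta, stood at 130.1 and 157 CPM in wild-type cells before and 101 and 109 after IFN-γ, and 209 and 177 in knock-in cells before and 103 and 99.8 after it. Its fall was −0.45 ± 0.14, adjusted p = 0.0327 in wild-type and −0.93 ± 0.14, adjusted p = 0.000651 in knock-in cells (edgeR), the first −0.14, adjusted p = 0.283 and the second −0.35, adjusted p = 0.0142 with the trend removed, and −1.24 and −1.46 under spike-in scaling.

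ITGAE encodes the alphaE subunit of a receptor for E-cadherin, whose partner is ITGB7 (chromosome 17, 3714628 to 3801243). It stood at 40.2 and 43.7 CPM in wild-type cells before and 17.5 and 17.01 after IFN-γ, and 41.6 and 43.7 in knock-in cells before and 17.2 and 14.5 after it. Every treated value was under every untreated one. The fall was −1.28 ± 0.15, adjusted p = 0.000527 in wild-type and −1.43 ± 0.15, adjusted p = 0.000188 in knock-in cells (edgeR), and −1.66 and −1.89 with the trend removed. Its exons overlap those of HASPIN on the other strand by up to 427 bases. Reads from the shared stretch cannot be told from those of HASPIN unless counting used strand.

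Integrin subunits called only in knock-in cells under TMM scaling were ITGA2B (1.33 ± 0.43, adjusted p = 0.0263), ITGA7 (0.79 ± 0.27, adjusted p = 0.0361) and ITGB5 (0.56 ± 0.20, adjusted p = 0.0412), by edgeR. ITGA2B, the platelet subunit, stood at 0.919 and 1.05 CPM in wild-type cells before and 1.94 and 1.35 after IFN-γ, and 1.39 and 1.39 in knock-in cells before and 4.03 and 2.99 after it. None was called with the trend removed, where ITGA7 stood at −0.31, ITGB5, the vitronectin receptor subunit, at −0.34 and ITGA2B at 0.26, or under spike-in scaling (0.26, 0.03 and 0.80). In wild-type cells ITGB5 was called lower with the trend removed (−0.47, adjusted p = 0.0195). The test of the difference between the lines called none of these 3 genes.

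Of the 11 tested laminin genes, 5 rose and 1 fell in wild-type cells and 6 rose and 1 fell in knock-in cells under TMM scaling, and none was called higher under spike-in scaling. LAMA1, LAMA3 and LAMA4 were not called in either line. LAMA5, the alpha chain of the main adult epithelial laminin (chromosome 20, 62307955 to 62367312), stood at 75.9 and 41.5 CPM in wild-type cells before and 134 and 108 after IFN-γ, and 51.7 and 38.1 in knock-in cells before and 138 and 119.7 after it. All treated libraries lay above the untreated ones. The rise was 1.04 ± 0.27, adjusted p = 0.0138 in wild-type and 1.52 ± 0.27, adjusted p = 0.00136 in knock-in cells (edgeR), with 0.31, adjusted p = 0.202 and 0.26, adjusted p = 0.287 left after the trend was removed, and 0.21 and 0.99 under spike-in scaling, neither called. Its exons overlap those of ADRM1 on the other strand by up to 158 bases.

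The beta chains LAMB2 and LAMB3 rose under TMM scaling. LAMB2 stood at 32.03 and 24.9 CPM in wild-type cells before and 62.1 and 56.9 after IFN-γ, and 27.4 and 22.8 in knock-in cells before and 60.1 and 52.5 after it. Its rise was 1.06 ± 0.17, adjusted p = 0.0017 and 1.17 ± 0.17, adjusted p = 0.000566 (edgeR), but 0.28 and −0.08 with the trend removed and 0.25 and 0.63 under spike-in scaling, none of these called. LAMB3, the epithelial beta chain, stood at 18.7 and 12.6 CPM in wild-type cells before and 26.1 and 24.2 after IFN-γ, and 12.8 and 9.76 in knock-in cells before and 24.5 and 22.6 after it. It rose by 0.68 ± 0.22, adjusted p = 0.0349 and 1.07 ± 0.22, adjusted p = 0.00308 (edgeR), but stood at 0.03 and −0.04 with the trend removed and at −0.15 and 0.53 under spike-in scaling, none called. For both genes the treated and untreated libraries did not overlap in either line.

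LAMB1 rose by 0.94 ± 0.13, adjusted p = 0.000988 in wild-type and 0.68 ± 0.13, adjusted p = 0.00212 in knock-in cells (edgeR), and by 0.48, adjusted p = 0.00523 and 0.07, adjusted p = 0.665 with the trend removed. LAMC1 rose by 0.68 ± 0.14, adjusted p = 0.00475 and 0.71 ± 0.14, adjusted p = 0.00229 (edgeR), and by 0.38, adjusted p = 0.0132 and 0.45, adjusted p = 0.0044 with the trend removed. Under spike-in scaling neither was called, with LAMB1 at 0.12 and 0.15 and LAMC1 at −0.13 and 0.17. LAMC3 stood at 7.99 and 5.21 CPM in wild-type cells before and 9.95 and 11.3 after IFN-γ, and 10.02 and 4.14 in knock-in cells before and 19.4 and 17.7 after it. It was called in knock-in cells (1.40 ± 0.37, adjusted p = 0.00977) and not in wild-type cells (0.68 ± 0.37, adjusted p = 0.17), and, in the same order, in neither with the trend removed (0.12 and −0.12) or under spike-in scaling (0.86 and −0.16).

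LAMA2, the alpha chain best known from muscle (chromosome 6, 128883141 to 129516569), fell in both lines. It stood at 14.3 and 21.9 CPM in wild-type cells before and 8.43 and 9.47 after IFN-γ, and 15.8 and 15.5 in knock-in cells before and 6.92 and 8.69 after it. The treated libraries were the lower ones in both lines. The fall was −1.02 ± 0.23, adjusted p = 0.00828 and −1.002 ± 0.23, adjusted p = 0.00548 (edgeR), and −1.22 and −1.08 with the trend removed, both still called. In shares of the alpha chains, LAMA5 went from 66.9 and 44.6% to 77.3 and 74.3% in wild-type and from 63.3 and 55.2% to 84.9 and 81.9% in knock-in cells. LAMA2 went from 14.9 and 27.8% to 5.74 and 7.68% and from 22.9 and 26.5% to 5.03 and 7.02%. These shares were taken without removing the GC trend, and the GC content is 65.3% for LAMA5 and 46.5% for LAMA2. How far the trend moved the shares was not tested.

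No collagen was called lower under TMM scaling. COL6A1 and COL6A2 are neighbours on chromosome 21 and encode chains of collagen VI, a microfibril. COL6A1 stood at 25.7 and 15.8 CPM in wild-type cells before and 41.2 and 35.05 after IFN-γ, and 31.7 and 19.8 in knock-in cells before and 59.5 and 58.97 after it. It rose by 0.88 ± 0.27, adjusted p = 0.0283 and 1.21 ± 0.26, adjusted p = 0.00405 (edgeR). COL6A2 stood at 36.99 and 28.5 CPM in wild-type cells before and 52.9 and 41.9 after IFN-γ, and 34.5 and 23.7 in knock-in cells before and 67.8 and 61.3 after it. It rose in knock-in cells (1.15 ± 0.22, adjusted p = 0.00176) and was not called in wild-type cells (0.53 ± 0.21, adjusted p = 0.0761). With the trend removed COL6A1 stood at 0.24 and 0.06 and COL6A2 at −0.10 and 0.04, and under spike-in scaling at 0.05, 0.67, −0.27 and 0.62, none of them called.

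COL27A1, a fibrillar collagen, stood at 5.79 and 4.41 CPM in wild-type cells before and 11.2 and 11.2 after IFN-γ, and 5.96 and 4.10 in knock-in cells before and 12.3 and 11.2 after it. It rose by 1.13 ± 0.24, adjusted p = 0.00621 and 1.23 ± 0.24, adjusted p = 0.0024 (edgeR), with 0.41 and 0.17 after the trend was removed and 0.31 and 0.70 under spike-in scaling, none called. COL18A1, whose fragment is endostatin, stood at 61.4 and 35.8 CPM in wild-type cells before and 93.1 and 66.9 after IFN-γ, and 40.1 and 21.00 in knock-in cells before and 74.9 and 75.4 after it. Its response was 0.72 ± 0.32, adjusted p = 0.106 and 1.30 ± 0.33, adjusted p = 0.00792 (edgeR), and it shares up to 1197 exon bases with SLC19A1 on the other strand. Treated libraries of COL27A1 lay above the untreated ones in both lines.

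COL17A1, a transmembrane collagen of hemidesmosomes, stood at 1.19 and 1.85 CPM in wild-type cells before and 2.71 and 2.33 after IFN-γ, and 1.73 and 2.13 in knock-in cells before and 4.83 and 4.39 after it. COL1A1, the main chain of collagen I, stood at 3.35 and 1.70 CPM in wild-type cells before and 4.58 and 4.90 after IFN-γ, and 1.56 and 1.89 in knock-in cells before and 3.84 and 4.70 after it. Both were called in knock-in cells (1.25 ± 0.37, adjusted p = 0.0182, and 1.30 ± 0.39, adjusted p = 0.0182) but not in wild-type cells (0.72 ± 0.38 and 0.90 ± 0.38). With the trend removed COL18A1, COL17A1 and COL1A1 stood at 0.05, 0.27 and −0.05 in knock-in cells, and under spike-in scaling at 0.77, 0.72 and 0.78, none of them called.

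The collagen IV genes COL4A4 and COL4A5 were called higher in wild-type cells (0.52 ± 0.16, adjusted p = 0.0324, and 0.49 ± 0.15, adjusted p = 0.0293) but not in knock-in cells (0.30 ± 0.16 and 0.18 ± 0.15). COL4A4 starts 112 bases from COL4A3 in the opposite direction, and COL4A5 starts 347 bases from COL4A6. COL4A3 (−0.04 ± 0.29 and −0.26 ± 0.28) and COL4A6 (0.97 ± 0.52 and 1.33 ± 0.53) were not called. Under spike-in scaling COL4A4 stood at −0.29 and COL4A5 at −0.31 in wild-type cells, and with the trend removed at 0.11 and 0.13. COL9A3 was called lower with the trend removed only (−0.53, adjusted p = 0.0257, and −0.50, adjusted p = 0.0208), and COL12A1 lower in the wild-type line by spike-in scaling only (−0.80, adjusted p = 0.00985). DESeq2 called neither COL4A4 nor COL4A5 (adjusted p = 0.0729 and 0.0515).

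**Figure D4:**
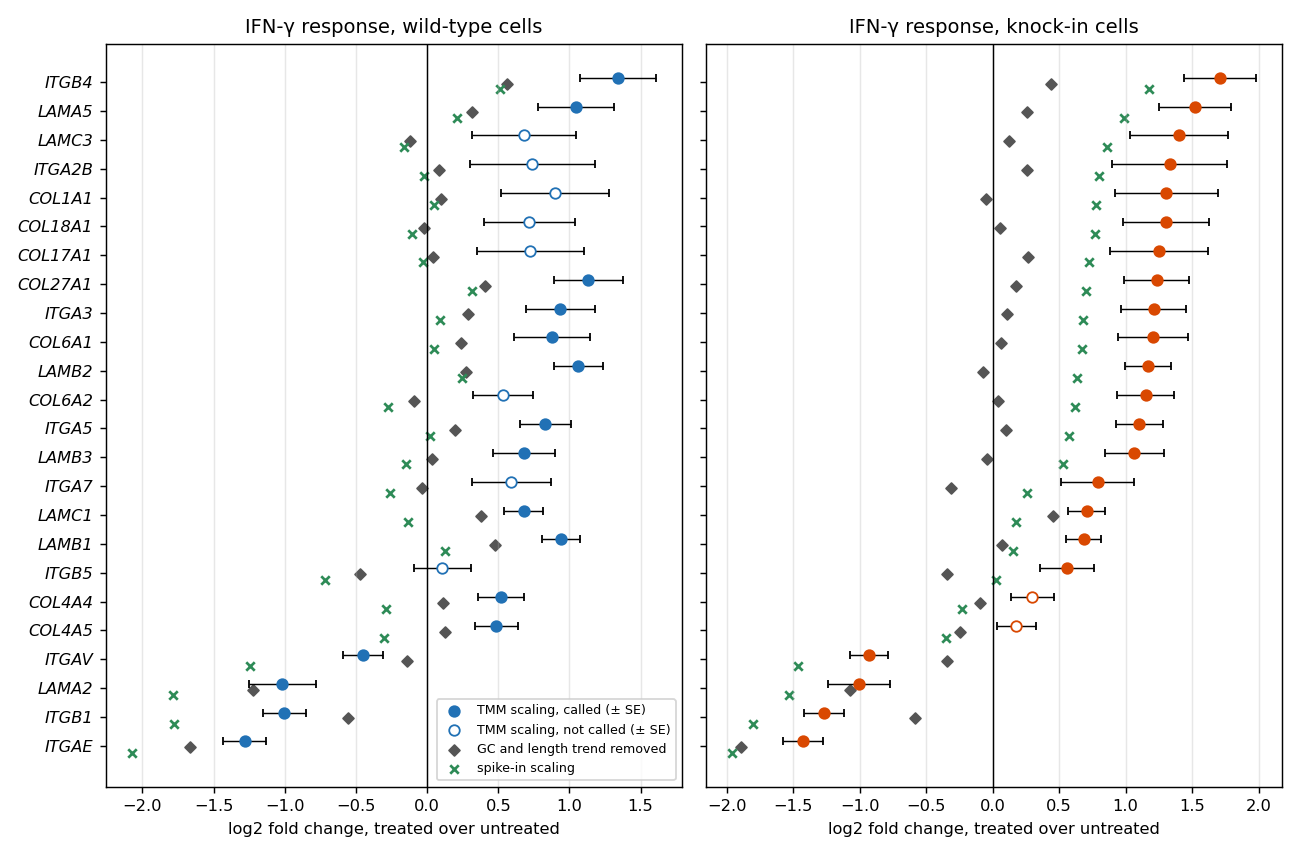
Log2 fold change of treated over untreated cells for each gene called in either line except ITGA4 and ITGAM, in wild-type (left) and knock-in cells (right); circles with bars show the value ± standard error under TMM scaling, filled where called, diamonds the value with the GC and length trend removed and crosses that under spike-in scaling. The diamonds of most rising genes lie near 0, while ITGB1, ITGAE and LAMA2 stay below 0 under all 3 scalings.

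With 1 library at a time left out, 7 of the 18 wild-type calls held in every fit (COL27A1, ITGAE, ITGB1, ITGB4, LAMB1, LAMB2 and LAMC1). COL4A4 (adjusted p 0.0714 to 0.155), COL4A5 (0.0632 to 0.197), ITGA4 (0.0738 to 0.158) and ITGAM (0.0624 to 0.127) lost theirs whichever wild-type library was left out. COL6A1 (0.57 to 1.19, highest adjusted p 0.147), ITGA3 (0.62 to 1.26, highest adjusted p 0.0647), ITGAV (−0.67 to −0.31, highest adjusted p 0.185) and LAMB3 (0.42 to 0.91, highest adjusted p 0.163) lost theirs without untreated wild-type library 2 or either treated wild-type library. ITGA5 (0.0531), LAMA2 (0.0659) and LAMA5 (0.0945) lost theirs without treated wild-type library 1, and the LAMA5 rise was 0.67 without untreated wild-type library 2, which also gave the smallest rises of COL6A1, ITGA3 and LAMB3. The count of called genes was 11 without untreated wild-type library 2, 7 once treated wild-type library 1 was left out and 10 once treated wild-type library 2 was.

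In knock-in cells 15 of 22 calls held in every such fit. The LAMC3 rise was 2.16 without untreated knock-in library 1 and 0.88 without untreated knock-in library 2. COL17A1 (adjusted p 0.054 to 0.0993), ITGA2B (0.0551 to 0.179) and ITGA7 (0.0695 to 0.183) lost theirs whichever knock-in library was left out. COL1A1 lost its call without either untreated library or treated library 2 (up to 0.0973), and ITGB5 without untreated library 2 or either treated library (0.35 to 0.79, highest adjusted p 0.271). COL18A1 lost it without untreated library 2 (0.0568) and LAMA2 without treated library 1 (0.0561). Without both knock-in libraries numbered 2, those with immunoglobulin signal, 7 of the 22 calls held (ITGA5, ITGAE, ITGAV, ITGB1, ITGB4, LAMA5 and LAMB2).

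The third question was whether the response differed between the lines. No gene of the set, and 0.0% of all tested genes, was called in the test of the difference by edgeR. At an unadjusted p under 0.05 there were 2 genes of the set, ITGA4 and ITGAV, and 1119 of all tested genes. DESeq2 called 4 genes and limma-voom 0, none of them of the set. For ITGAV the knock-in response minus the wild-type response was −0.48 ± 0.20 (unadjusted p = 0.0393, adjusted p = 0.688, edgeR). The difference was −0.13 ± 0.24 for ITGB8, 0.26 ± 0.35 for COL13A1, 0.49 ± 0.31 for COL9A3, −0.26 ± 0.19 for LAMB1, 0.03 ± 0.19 for LAMC1 and 0.37 ± 0.37 for ITGB4. ITGA4 was called with no filter on low counts (adjusted p = 5.53e-15) or with the replicate number as a block (adjusted p = 0.0337, with 0.163% of tested genes called), and it followed the immunoglobulin signal described next.

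The leukocyte integrins followed single libraries. The immunoglobulin genes summed to 211 and 258 CPM in wild-type cells at 0 h and to 200.3 and 165 CPM in the knock-in libraries numbered 2, untreated and treated, and to at most 1.30 CPM in the other 4 libraries. ITGA4, the alpha4 subunit of lymphocyte homing receptors, stood at 4.32 and 6.36 CPM in wild-type cells before and 0 and 0 after IFN-γ, and 0 and 4.51 in knock-in cells before and 0 and 4.82 after it. It had 0 counts in exactly the 4 libraries without immunoglobulin signal. ITGAL, the alphaL subunit, stood at 1.33 and 1.70 CPM in wild-type cells before and 0.114 and 0.122 after IFN-γ, and 0.0557 and 1.19 in knock-in cells before and 0.110 and 1.16 after it. Its 4 higher values fell in the same 4 libraries as those of ITGA4.

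ITGB7, the partner of ITGA4 and ITGAE, stood at 3.54 and 1.65 CPM in wild-type cells before and 0.991 and 0.408 after IFN-γ, and 0.668 and 3.16 in knock-in cells before and 1.21 and 1.91 after it. Within each line it was higher in the libraries with immunoglobulin signal, but it was detected in all 8. Its exons overlap those of ZNF740 on the other strand by up to 409 bases. The 12 leukocyte markers summed to 35.9 to 46.3 CPM in the 4 libraries with the signal and 3.71 to 14.2 CPM in the others, where CD53 was at 0 and PTPRC at 0.330 to 0.668 CPM. In the wild-type line the signal was in both untreated and no treated library, so it cannot be told apart there from treatment. ITGA4 was called lower in wild-type cells (edgeR, adjusted p = 0.0477; at least 45.1-fold against a floor of 3 counts per library), but not by DESeq2 (adjusted p = 0.0939) or limma-voom (0.0889). ITGAL (−3.62 ± 1.37, adjusted p = 0.063) and ITGB7 (−1.88 ± 0.78, adjusted p = 0.0867) were not, except with the trend removed (adjusted p = 0.0376 and 0.0361) or under spike-in scaling (0.031 and 0.0332). In bulk RNA fewer cells of a type and less RNA per cell cannot be told apart.

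ITGAM, the alphaM subunit of myeloid cells, did not follow that signal. It had 1 and 2 counts in wild-type cells before and 14 and 21 after IFN-γ, and 6 and 8 in knock-in cells before and 11 and 15 after it. Its wild-type call (3.17 ± 0.94, adjusted p = 0.0265, edgeR) rests on those counts, and it was not called with the trend removed (2.56, adjusted p = 0.0837) or under spike-in scaling (2.41, adjusted p = 0.0637). Its neighbour ITGAX was not called in either line.

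**Figure D5:**
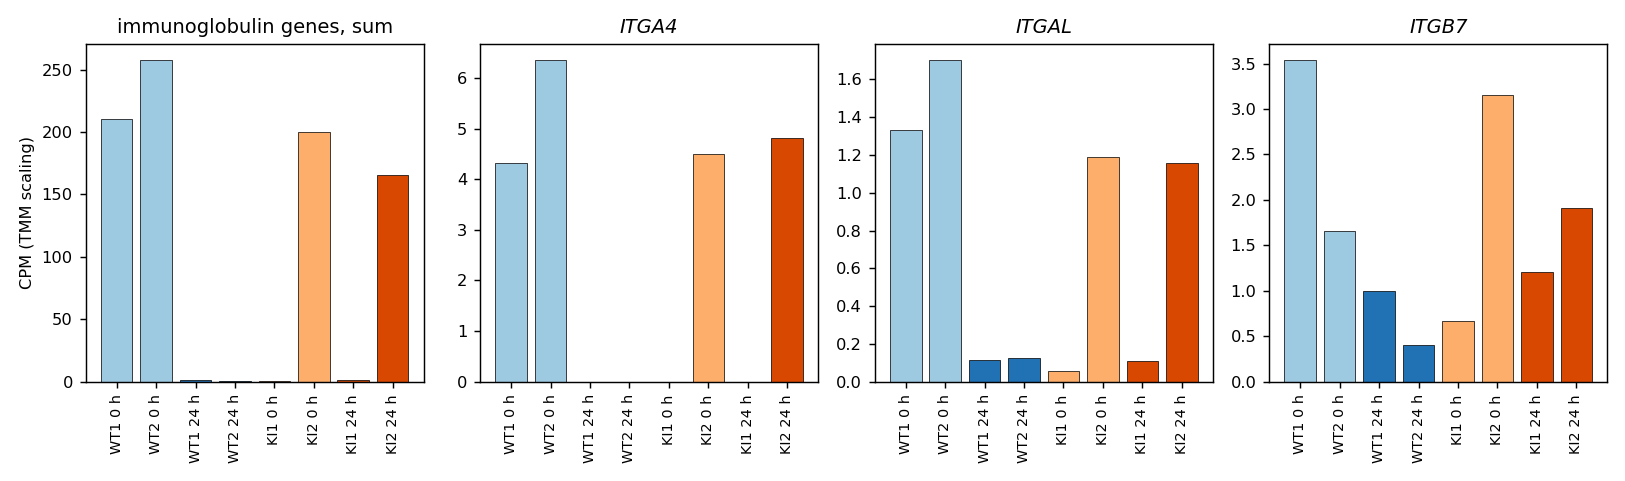
Level of the summed immunoglobulin genes and of the leukocyte integrin genes ITGA4, ITGAL and ITGB7 in each library, in CPM; bars are single libraries, WT is wild-type, KI knock-in, 0 h untreated and 24 h treated, with the library number after the line. ITGA4 is at 0 in the 4 libraries where the immunoglobulin sum is at most 1.30 CPM.

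The 30 genes called in no pairwise comparison under TMM scaling were mostly of low level, with a median of 0.257 CPM per kb. The 32 called genes had a median of 5.81 CPM per kb, and 6 of them were under 1 CPM per kb. The 26 uncalled genes under 1 CPM per kb were, from the highest to the lowest level, COL5A2, COL4A3, ITGB7, COL16A1, COL8A1, ITGA1, LAMA4, ITGA10, ITGAX, COL7A1, COL28A1, COL19A1, COL4A6, COL6A3, ITGB6, COL26A1, ITGAL, COL11A2, ITGA9, ITGA11, COL4A1, COL1A2, LAMA1, COL4A2, ITGA8 and COL21A1. The other 4 were COL12A1, COL9A2, ITGA2 and ITGA6, with means of 14.2, 1.02, 8.95 and 64.8 CPM per kb. ITGA11 and ITGA10, which bind collagens, and ITGA9, which binds tenascin, are in the low group.

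Genes that work with these families were read from 5 lists, whose counts stand beside the shares of all tested genes called in the wild-type and knock-in responses (37.9 and 52.1%; 26.4 and 31.0% with the trend removed, 42.2 and 36.9% under spike-in scaling) and in the line differences without and with IFN-γ (8.43 and 2.91%). The median log2 fold changes of the lists lay between 0.10 and 0.68 in the wild-type response and 0.40 and 0.95 in the knock-in response, beside 0.08 and 0.12 for all tested genes. With the trend removed they lay between −0.06 and 0.30 and between −0.04 and 0.19, beside −0.01 and −0.02. Under spike-in scaling they lay between −0.71 and −0.17 and between −0.13 and 0.42, beside −0.72 and −0.41. Between the lines, under TMM scaling, the medians lay between −0.55 and 0.47 without and −0.02 and 0.79 with IFN-γ, beside −0.02 and −0.01. Among 13 tested genes of other basement membrane and integrin-ligand matrix, 4 were higher and 0 lower in knock-in cells without IFN-γ and 3 and 0 with it. FN1, fibronectin, the ligand of ITGA5 with ITGB1, stood at 2.21 and 1.70 CPM in wild-type cells before and 4.61 and 5.88 after IFN-γ, and 9.19 and 7.71 in knock-in cells before and 17.98 and 16.6 after it. It was higher in knock-in cells (2.10 ± 0.25, adjusted p = 0.00173, and 1.72 ± 0.23, adjusted p = 0.00382; edgeR), the second not without treated knock-in library 1 (adjusted p = 0.0516). SPARC, a collagen-binding matrix protein, stood at 0.0459 and 0.351 CPM in wild-type cells before and 0 and 0 after IFN-γ, and 12.7 and 17.1 in knock-in cells before and 10.5 and 8.97 after it. It was near 0 in wild-type cells and higher in knock-in cells by edgeR (adjusted p = 0.000691 and 0.000513).

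With IFN-γ, 5 of those 13 genes rose and 1 fell in wild-type cells, and 6 rose and 0 fell in knock-in cells. With the trend removed this was 3 and 1 in wild-type and 4 and 1 in knock-in cells, and under spike-in scaling 1 and 2, and 1 and 1. Under TMM scaling the 1 fall in wild-type cells was that of SPARC (adjusted p = 0.0262, edgeR), which limma-voom did not call. That fall rests on values near 0, with 0.0459 and 0.351 CPM before and 0 and 0 after IFN-γ. NTN4, a netrin that binds laminin gamma chains, stood at 1.42 and 3.10 CPM in wild-type cells before and 8.69 and 10.6 after IFN-γ, and 1.73 and 1.85 in knock-in cells before and 8.02 and 8.73 after it. It rose in both lines (2.09 ± 0.35, adjusted p = 0.00202, and 2.22 ± 0.36, adjusted p = 0.000843; edgeR), and its rise was also called with the trend removed (2.08 and 2.29) and under spike-in scaling (1.34 and 1.69). HSPG2, perlecan, rose by 1.03 ± 0.23 and 1.42 ± 0.23, but was not called with the trend removed (0.30 and 0.13) or under spike-in scaling (0.22 and 0.89), nor in wild-type cells without treated library 1 (adjusted p = 0.0646).

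Of 27 tested genes of collagen biosynthesis and crosslinking, 6 rose and 3 fell in wild-type and 13 rose and 4 fell in knock-in cells with IFN-γ. With the trend removed this was 1 and 4 in wild-type and 2 and 3 in knock-in cells, and under spike-in scaling 0 and 7, and 1 and 4. Between the lines 0 were higher and 1 lower without IFN-γ and 1 and 1 with it. PXDN, peroxidasin, which crosslinks collagen IV, stood at 14.6 and 8.86 CPM in wild-type cells before and 15.3 and 15.99 after IFN-γ, and 0.111 and 0.246 in knock-in cells before and 0.586 and 0.439 after it. It was lower in knock-in cells (−5.93 ± 0.42, adjusted p = 0.000105, and −4.91 ± 0.36, adjusted p = 0.000167; edgeR). LOXL2, a lysyl oxidase, was higher in treated knock-in cells (1.30 ± 0.22, adjusted p = 0.0123; 1.23, adjusted p = 0.13 under spike-in scaling), but not when any 1 library was left out (adjusted p up to 0.142). PLOD1 and ADAMTS14, which modify and trim procollagen, were not called between the lines. With IFN-γ PLOD1 rose by 1.13 ± 0.19 in wild-type and 1.44 ± 0.20 in knock-in cells, and by 0.58 and 0.52 with the trend removed, all called. Under spike-in scaling its rise was called in knock-in (0.91) and not in wild-type cells (0.29). ADAMTS14 rose in knock-in cells only (1.36 ± 0.25), not called with the trend removed (0.11) or under spike-in scaling (0.82).

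Of 30 tested genes of integrin activation and the adhesion complex, 13 rose and 1 fell in wild-type and 19 rose and 3 fell in knock-in cells with IFN-γ. With the trend removed 8 rose in each line, and 1 and 2 fell. Spike-in scaling left 0 higher and 5 lower in wild-type and 3 and 3 in knock-in cells. TNS3, a tensin that binds beta subunit tails, rose by 1.13 ± 0.19 in wild-type and 1.45 ± 0.19 in knock-in cells, and TNS1 by 1.07 ± 0.24 and 1.503 ± 0.24. Without treated library 1 the TNS1 rise in wild-type cells was not called (adjusted p = 0.074). The TNS1 rise was not called with the trend removed (0.25 and 0.29), nor those of TNS3 and TNS1 in the wild-type line by spike-in scaling (0.31 and 0.30). In knock-in cells the rises of TNS3 and TNS1 were 0.92 and 0.97 under spike-in scaling, both called. Between the lines 2 genes of this list were higher and 3 lower without IFN-γ, and 0 were called with it. TLN2, a talin, was lower in untreated knock-in cells (−1.26 ± 0.25, adjusted p = 0.019), but not called without untreated wild-type library 1 or untreated knock-in library 2 (adjusted p up to 0.13).

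Of 12 tested genes of other matrix receptors and the hemidesmosome, 2 rose and 1 fell in wild-type and 6 rose and 1 fell in knock-in cells with IFN-γ. This was 2 and 1, and 3 and 1, with the trend removed, and 1 and 7, and 1 and 2, under spike-in scaling. LGALS3BP, a secreted integrin and galectin ligand, stood at 245 and 148 CPM in wild-type cells before and 848 and 835 after IFN-γ, and 141 and 125 in knock-in cells before and 931 and 898 after it. It rose by 2.10 ± 0.21, adjusted p = 0.000317 and 2.78 ± 0.22, adjusted p = 7.13e-05 (edgeR), 1.70 and 1.96 with the trend removed, and 1.25 and 2.25 under spike-in scaling, all called. DAG1, dystroglycan, rose by 0.88 ± 0.18 and 1.28 ± 0.18, and BCAM, a receptor for LAMA5, by 1.35 ± 0.37 in knock-in cells (not without untreated library 2, adjusted p = 0.0865), neither called with the trend removed (0.18, 0.19 and 0.29) or under spike-in scaling (0.06, 0.74 and 0.81). SDC1, syndecan-1, also a plasma cell marker, stood at 294 and 397 CPM in wild-type cells before and 63.5 and 61.2 after IFN-γ. In knock-in cells it stood at 66.4 and 272 before and 79.5 and 306 after it, so its 4 highest values were in the libraries with immunoglobulin signal. SDC1 was the 1 gene of this list called lower in the wild-type response under TMM scaling (adjusted p = 0.0191, edgeR). Between the lines 0 genes of this list were higher and 1 was lower, without and with IFN-γ.

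Of 17 tested matrix proteases and inhibitors, 0 rose and 3 fell in wild-type and 6 rose and 4 fell in knock-in cells with IFN-γ, against 0 and 0, and 1 and 1, with the trend removed and 0 and 4, and 0 and 5, under spike-in scaling. Without IFN-γ 3 were higher and 1 lower in knock-in cells (0 and 1 under spike-in scaling), and with it 1 and 2. MMP14, a membrane collagenase, stood at 8.45 and 8.16 CPM in wild-type cells before and 9.72 and 10.4 after IFN-γ, and 21.9 and 17.3 in knock-in cells before and 29.4 and 30.9 after it. It was higher in knock-in cells (1.23 ± 0.18, adjusted p = 0.00427, and 1.59 ± 0.17, adjusted p = 0.0015; edgeR), the first 0.90, adjusted p = 0.0656 under spike-in scaling. PLAU, urokinase, stood at 38.1 and 28.7 CPM in wild-type cells before and 41.3 and 41.9 after IFN-γ, and 13.5 and 13.04 in knock-in cells before and 15.7 and 16.9 after it. It was lower in knock-in cells (−1.33 ± 0.17, adjusted p = 0.00276, and −1.35 ± 0.17, adjusted p = 0.00307; edgeR), the second not without treated knock-in library 1 (adjusted p = 0.0533). ADAM9 fell in both lines (−0.96 ± 0.15 and −1.22 ± 0.15), but was not called with the trend removed (−0.22 and −0.16). Under spike-in scaling the ADAM9 fall was −1.74 and −1.75, called in both lines.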

How the data were processed

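RNA-seq of 8 libraries (2 per group) was used. The authors deposited 1 table of estimated counts per Ensembl gene ID, with values that need not be whole. Per the submitters' processing notes, Trimmomatic and kallisto were used with the GRCh38 build. Not given in the sources used here were tool versions, the transcript annotation and the use of strand. Estimated counts were rounded, 63 spike-in rows were kept apart, and IDs were named from GENCODE 29 on GRCh38. Total counts were 20901909 to 28045842 per library. With 2 libraries per group, the common biological variation was 20.4% (coefficient of variation).

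Genes passing edgeR's filterByExpr at a minimum count of 10 (16519) were tested with edgeR 4.0.16 (quasi-likelihood test, TMM scaling, group as the only term, all 8 libraries, Benjamini-Hochberg adjustment, threshold 0.05) in R 4.3.3. The fit was checked on simulated data. Alternatives were DESeq2's size factors, spike-in scaling, DESeq2 1.42.0, limma-voom (limma 3.58.1), no filter, at least 50 counts in 2 libraries, the replicate number as a block, a loess trend on GC content and length removed per library (span 0.3; GC known for 92.4% of tested genes), only the groups compared, and each library left out. A block with the trend removed was chosen after seeing the data. Tables were made with Python 3.11.15 and pandas 2.3.3. CPM were computed by edgeR from the TMM-scaled library size, and per-kb values divide them by the median length of protein-coding transcripts.

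The members, lists and alternatives were chosen with earlier results of these data known, and the earlier pattern is not independent support. Values in every library are given for members called in a pairwise comparison with a log2 fold change of at least 1 in size, for the 4 members of each family with the highest level per kb, and for others beside a result. From each of 5 lists of related genes up to 4 genes of at least 5 CPM were named. A few genes that the counts include are not reported here. An estimated count of 0 allows up to 3 counts.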

Additional observations from a re-analysis of the deposited data

How the results depend on the processing

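Counts of called genes depended on the processing. With the trend on GC content and length removed, 4038 genes were called in the wild-type and 4739 in the knock-in response (1934 higher and 2805 lower), 2640 in the untreated line difference and 1579 in that with IFN-γ, and 11, 13 and 14 members in the last 3. Spike-in scaling called 667 and 195 genes in the line differences, and 10, 5, 5 and 3 members in the 4 comparisons. Its splits were 233 higher and 6745 lower for the wild-type and 616 and 5476 for the knock-in response, and 150 and 517 and 95 and 100 for the line differences, against 2820 and 3435, 4356 and 4257, 703 and 689, and 269 and 212 under TMM scaling. DESeq2 called 2290 and 886 genes in the line differences, 11 members in that with IFN-γ, and 4 genes in the difference between the responses. With no filter these were 2959, 1227, 14 members and 267 genes (1 member). With only the groups compared, 614 and 2427 genes and 18 members with IFN-γ were called. Without IFN-γ 5 members were then called higher and 1 lower, against 5 and 3 in the main fit. Without both knock-in libraries numbered 2, 3523, 250 and 118 genes and 7, 4 and 2 members were called in the knock-in response and the line differences, and 5 genes in the difference between the responses. The cause of these shifts was not tested.

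Leaving out 1 library gave 3266 to 7796 genes (7 to 17 members) in the wild-type response, 6327 to 7500 (16 to 18) in the knock-in response, 406 to 4814 (5 to 15) in the untreated and 147 to 189 (3 to 4) in the treated line difference, and 0 to 2 (0) in the difference between the responses. The untreated line difference had 4814 calls when untreated wild-type library 2 was dropped and 406 when untreated knock-in library 2 was, and the wild-type response 3266 without treated wild-type library 1.

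Same-numbered deviations correlated at r = 0.27 between the knock-in groups, whose libraries numbered 2 both carried the immunoglobulin signal, and at 0.01, 0.07 and 0.03 between other groups, so the numbers were not taken to pair the libraries. With the replicate block 6705, 8668, 1971, 589 and 27 genes and 22, 22, 9, 7 and 1 members were called in the 5 comparisons, the last being ITGA4. The block with the trend removed gave 4978, 3065, 1817 and 30 genes and 13, 13, 16 and 1 members in all but the wild-type response.

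Signs turned in the wild-type response under spike-in scaling for COL4A4 (−0.29), COL4A5 (−0.31), LAMB3 (−0.15) and LAMC1 (−0.13). With the trend removed, and in brackets with the block too, they turned in the knock-in response for COL1A1 −0.0517 (−0.0322), ITGA7 −0.31 (−0.32), ITGB5 −0.34 (−0.33), LAMB2 −0.0763 (−0.0797), LAMB3 −0.0434 (−0.0446), LOXL2 −0.16 (−0.16) and MMP14 −0.43 (−0.43). The cause was not tested.

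At 20901909 to 28045842 counts per library, the 20 untested members had at most 19 counts in a library, though a few with similar counts were tested, and the bound from a count of 0 covers counting error only. Line and MED12 change, and IFN-γ and time in culture, cannot be told apart.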
